A study of Mus musculus with 1824 samples.

Results

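The cells described here are those that carry genes of pharyngeal and cardiac mesoderm, the mesoderm that forms the heart and the muscle and connective tissue of the pharyngeal arches. A cell was a member when it had at least 100000 reads, at least 2 of the 5 markers Isl1, Tbx1, Nkx2-5, Tbx5 and Myl7 at 20 CPM (counts of a gene per 1000000 counts of the cell) or more, and fewer than 3 of the endothelial genes Cdh5, Pecam1, Tie1, Tek and Esam at that level. Of 1649 cells with enough reads, 94 met the rule (5.70%, 95% Clopper-Pearson interval 4.63 to 6.93). At E7.5 (embryonic day 7.5) these were 58 cells (6.07% of those with enough reads, 4.64 to 7.77), and at E8.5 they were 36 (5.19%, 3.67 to 7.12). The intervals cover counting error only.

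The cells came from mouse chimaeras in which embryonic stem cells lacking Tet1, Tet2 and Tet3 and carrying a CAG-driven H2B-tdTomato label had been injected into C57BL/6J blastocysts and carried by CD1 recipients. Smart-seq2, which reads whole transcripts and has no molecular identifiers, was applied to 1824 single cells on 19 plates, 11 of E7.5 and 8 of E8.5. The labels give each cell only the strain CD1 and the stage, with neither the genotype nor the sort gate, so the members mix host and knockout cells to an unknown degree and shares describe the sorted wells. Per the methods of the study, chimaeras were pooled and live single cells were sorted on KDR, CD41 and tdTomato. Only 4 E7.5 plates name an embryo, while the other E7.5 plates (1 chimera plate and 6 plates named here by their lane) and all E8.5 plates name none. Each stage is therefore treated as 1 sample, no test was made, and the spread is given between plates, which can differ in embryo, sorted population and library at once. The members were chosen from reads of the same cells that are described, so every level and difference below is a description.

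The heart arises from mesoderm that leaves the anterior primitive streak after passing through a state marked by the transcription factor MESP1. Part of it, the first heart field, differentiates early into beating muscle and uses TBX5, NKX2-5 and HAND1. The second heart field, marked by ISL1, TBX1 and FGF10, stays proliferative in the pharyngeal mesoderm and later adds cells to both ends of the heart tube, while retinoic acid made by ALDH1A2 and removed by CYP26 enzymes patterns it along the body axis.

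Promoter sequence is shown for 3 genes that stand for the axes along which the members varied: Myl7, the atrial myosin light chain of the rule, Actc1, the cardiac actin of the contractile members, and Isl1, the second heart field regulator carried by most members. Each run goes from 250 to 16 bases before the RefSeq start site (GRCm38.p6), read 5′ to 3′ on the strand of the gene. Capitals mark matches to the CArG box bound by serum response factor, whose cofactor is myocardin, to GATA, and to AAGTG, the core recognised by NKX2-5, each searched on both strands (CACTT is AAGTG on the other strand), and no matches overlap.
Myl7, chr11:5898798-5899032, minus strand: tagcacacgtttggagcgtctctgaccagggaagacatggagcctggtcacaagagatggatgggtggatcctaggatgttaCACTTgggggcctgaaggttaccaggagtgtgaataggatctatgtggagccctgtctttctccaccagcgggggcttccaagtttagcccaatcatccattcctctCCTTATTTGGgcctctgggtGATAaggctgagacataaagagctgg
Actc1, chr2:114052891-114053125, minus strand: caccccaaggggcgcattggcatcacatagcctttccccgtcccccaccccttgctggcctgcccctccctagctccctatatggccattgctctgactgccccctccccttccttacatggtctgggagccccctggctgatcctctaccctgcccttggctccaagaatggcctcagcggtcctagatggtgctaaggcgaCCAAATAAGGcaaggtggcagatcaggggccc
Isl1, chr13:116309704-116309938, minus strand: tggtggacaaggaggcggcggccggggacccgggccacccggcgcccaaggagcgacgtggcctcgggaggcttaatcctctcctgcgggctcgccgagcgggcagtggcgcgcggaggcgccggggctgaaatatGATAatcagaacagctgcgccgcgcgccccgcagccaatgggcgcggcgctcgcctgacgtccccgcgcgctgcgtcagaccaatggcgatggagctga
A CArG box stood in the windows of Myl7 and Actc1 and not in that of Isl1, and 1.42% of 32851 promoter windows of the same length held it. GATA stood in those of Myl7 and Isl1 (52.3% of windows), and AAGTG in that of Myl7 alone (38.9%). In GRCm38, Myl7 (ENSMUSG00000020469) lies at chr11:5896637-5898782, Actc1 (ENSMUSG00000068614) at chr2:114047282-114053548 and Isl1 (ENSMUSG00000042258) at chr13:116298281-116309689. The GENCODE gene Actc1 starts upstream of the RefSeq start site, so the window shown for it lies inside that gene. A match of letters is a description and not evidence of binding.

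Members were unevenly spread over plates. At E7.5 every plate held some, from 1 of 93 cells on lane plate 1 (1.08%) to 12 of 83 on lane plate 6 (14.5%), and the embryos held 5, 6, 2 and 4. At E8.5 all members came from 4 plates, with 4 on plate 3 (4.82%), 10 on plate 4 (12.2%), 12 on plate 7 (13.6%) and 10 on plate 8 (11.4%). Plates 1, 2, 5 and 6 held 0, which allows a share of up to 3.26% to 3.90% of a plate (the limit from 3 counts). The reads of Kdr, which encodes a surface receptor used in the sorts, differed between the same plates, and its level over the other cells was 1418 and 1111 CPM on plates 3 and 4 against 1.31 and 8.22 CPM on plates 7 and 8. Member cells held 118124 to 2045039 reads, with medians of 721649.5 at E7.5 and 445924.5 at E8.5 against 736802 and 576137 in other cells. After thinning to 100000 reads the median number of genes was 7281.5 in E7.5 members and 7008 in other E7.5 cells, and 6642 and 6414 at E8.5. No pair of members held identical values.

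**Figure D1:**
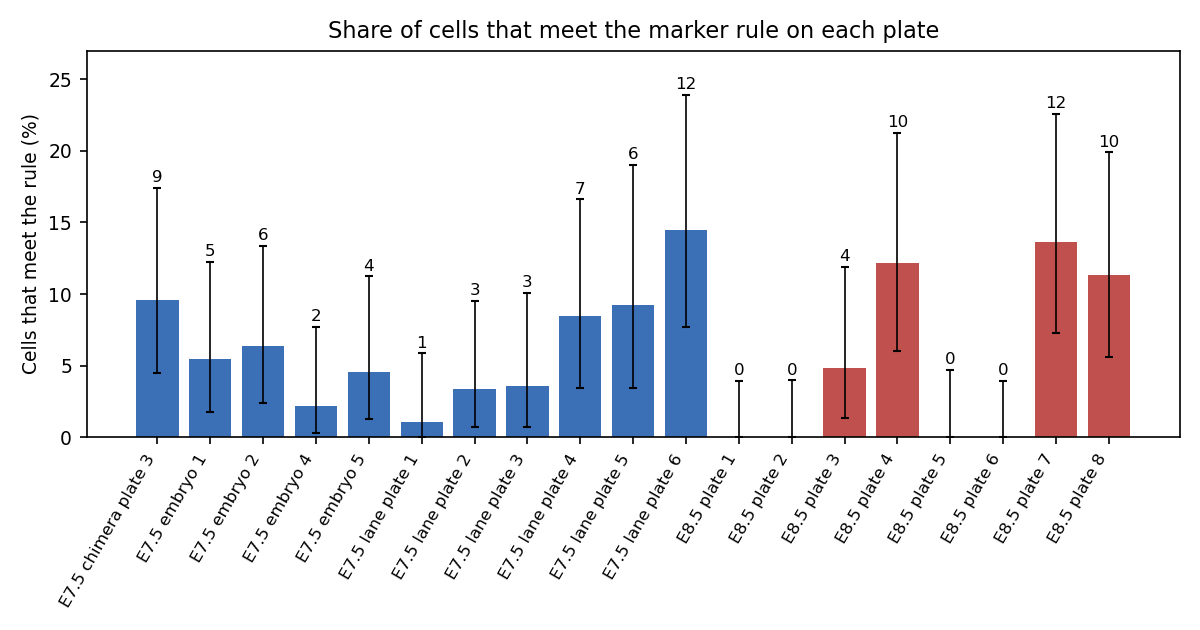
Percentage of cells with at least 100000 reads that met the rule, for each of the 19 plates, with 95% Clopper-Pearson intervals that cover counting error only. At E8.5 members stand on plates 3, 4, 7 and 8 only, while every E7.5 plate holds at least 1.

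The markers combined differently at the 2 stages. Most E7.5 members carried Isl1 with Myl7 and nothing else of the rule (38 of 58), while only 4 of 36 E8.5 members did. At E8.5 the most frequent pair was Isl1 with Tbx1 (8 cells, 6 at E7.5), followed by Isl1 with Nkx2-5 and the set Nkx2-5, Tbx5 and Myl7 (4 cells each, against 1 and 0 at E7.5). Nkx2-5, a homeobox regulator of cardiac muscle, reached 20 CPM in 17 of 36 E8.5 members and 4 of 58 E7.5 members. Among the other cells, it did so in 3 at E8.5 and 1 at E7.5. Nkx2-5 is a marker of the rule, which by itself favours few such cells outside the members. Myl7 reached 20 CPM in 51 of 58 E7.5 members and 18 of 36 E8.5 members, and Isl1 in 51 and 28. Membership rested on few markers, since 74 members had exactly 2, 15 had 3 and 5 had 4 or 5. The second marker lay at 21.16, 21.95, 23.65, 23.67 and 23.84 CPM in the members just inside the limit and at 19.45, 19.41, 19, 18.87 and 18.07 CPM in the cells just outside, and 18 members had it between 20 and 30 CPM. In the shallowest member, 3 reads sufficed for 20 CPM. A further 7 cells with at least 2 markers were left out for endothelial genes, and 90 of 94 members had none of those genes at 20 CPM.

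Checked against other genes, the name pharyngeal and cardiac mesoderm held for only some of the members. At E7.5, 33 of 58 members (56.9%, 43.2 to 69.8) carried at least 3 of 6 genes of the primitive streak and nascent mesoderm at 20 CPM, against 32.1% of other cells (29 to 35.2). These cells made up 8 of 9 members on the chimera plate, all 5 and 6 on embryos 1 and 2, and 3 of 12 on lane plate 6. Only 3 E7.5 members (5.17%, 1.08 to 14.4) carried at least 8 of 27 sarcomere genes, the parts of the contractile apparatus other than Myl7, against 4 other cells (0.445%), and all 3 were on lane plate 4. At E8.5 the order turned round. Of 36 members, 13 carried at least 8 sarcomere genes (36.1%, 20.8 to 53.8) against 5 other cells (0.761%, 0.248 to 1.77), and 0 carried 3 streak genes (upper limit 9.74%). In 8 of 36 E8.5 members (22.2%, 10.1 to 39.2) both epithelial genes Epcam and Cldn6 were present, against 66 other cells (10%, 7.85 to 12.6), and 4 members carried at least 2 of the allantois genes Tbx4, Hoxa11, Hoxa13, Hoxd13 and Pitx1. The set is for this reason called by its rule below.

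**Figure D2:**
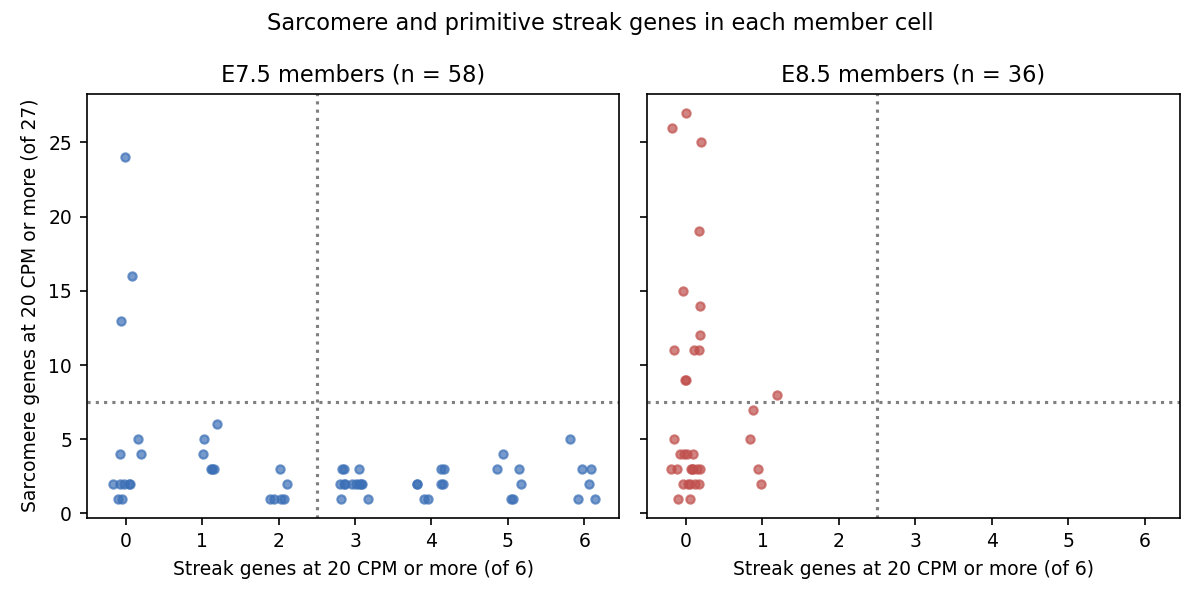
Number of the 27 sarcomere genes at 20 CPM or more against the number of the 6 streak genes at that level in each member, by stage. E7.5 members reach 6 streak genes with a median of 3, while E8.5 members hold at most 1 and reach 27 sarcomere genes with a median of 4.

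The 3 contractile E7.5 members did not carry the programme to the same extent. In the cell with the most, 24 sarcomere genes were present, with Myl7 at 8988 CPM, Actc1 at 9988 CPM, Myl4 at 6397 CPM, the giant spring protein gene Ttn at 5130 CPM and the troponin T gene Tnnt2 at 2730 CPM. Another carried 16, with Myl7 at 778.5 CPM and Actc1 at 357.3 CPM. The remaining one of the trio carried 13 sarcomere genes, with Tbx5 at 95.48 CPM, Myl7 at 177.7 CPM and Actc1 at 929.2 CPM. The plate stood apart accordingly. Over the 6 E7.5 plates with at least 5 members, Tnnt2 in members was 347.1 CPM on lane plate 4 and 0 to 1.46 CPM on the other 5. The level of a plate pools the reads of its members, so the cell with Tnnt2 at 2730 CPM weighs heavily in it.

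The 36 E8.5 members could be divided by the genes they carried, a division drawn after the values were seen and given without a test. It comprises 13 contractile members (at least 8 sarcomere genes), 7 epithelial members (Epcam and Cldn6), 3 members with allantois markers and 13 remaining members. Levels of sarcomere genes, Epcam, Cldn6 and the allantois genes by type are therefore largely fixed by the division. Contractile cells came mainly from plate 7 (7 of 13) and plate 8 (4), the remaining members mainly from plate 4 (7 of 13), and the epithelial ones from plates 7 and 8 only (4 and 3), so type and plate move together. Contractile members had Actc1 at 4410 CPM (10 of 13 cells at 20 CPM), Tnnt2 at 775.4 CPM (11 cells) and Myocd, the gene of the muscle coactivator myocardin, at 495.5 CPM (10 cells). In the remaining members these stood at 7.27, 5.30 and 15.4 CPM. Wnt2, which encodes a Wnt ligand of the venous pole of the heart, was at 570 CPM in contractile and 25.4 CPM in remaining members. Tbx5, a T-box regulator of the atria and the first heart field, was at 61.9 CPM (8 of 13 cells) and 3.03 CPM (1 of 13 cells).

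The remaining E8.5 members met the rule mostly through Isl1 (218.1 CPM, 12 of 13 cells) and Tbx1 (123.7 CPM, 10 cells). Beyond the rule markers, the growth factor gene Fgf10 was at 110.04 CPM in 10 of 13 cells, against 93.3 CPM in 4 of 13 contractile members. Prdm1, which encodes a repressor used in the pharyngeal arches, was at 95.1 CPM (9 cells) and 44.8 CPM (5 cells) in the same order. The BMP antagonist Grem1 was at 93.1 CPM in the remaining members (7 cells) and at 0 CPM in the other 3 types. Fst, an antagonist of activins, reached 148.3 CPM in 7 of 13 remaining members against 0.0620 CPM over the other E8.5 members. Rdh10, which encodes a retinol dehydrogenase, was at 132.3 CPM (10 of 13 cells) and Aldh1a2 at 240.7 CPM (7 cells). Kdr stood at 292.7 CPM (9 cells) in the remaining members and at 59.9 CPM (4 cells) in contractile members. Over all members of a plate it was at 597.96 and 479.67 CPM on plates 3 and 4 and at 4.63 CPM on plate 8. Plates 3 and 4 held 2 and 7 of the remaining members, and plates 7 and 8 held 7 and 4 of the contractile ones. For Kdr, type and plate can thus not be told apart.

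Epithelial members met the rule chiefly through Isl1 (102.1 CPM, 7 of 7 cells) and Tbx1 (246.03 CPM, 4 of 7), genes that pharyngeal endoderm and ectoderm also express. They held Cldn6 at 1800 CPM and Epcam at 380 CPM, and the presence of both in 7 of 7 cells is fixed by the division. Cldn7, which took no part in it, was at 318.1 CPM in 7 of 7 cells. Esrp1, which encodes a splicing regulator of epithelia, was at 125.97 CPM in 7 of 7 epithelial members and reached 20 CPM in 0 of 29 other E8.5 members. Pax9, a regulator in the pharyngeal pouches, was at 179.35 CPM (4 of 7 cells) against 0.535 CPM over the rest. Pdgfra, the platelet-derived growth factor receptor of mesoderm, was at 0 CPM in epithelial members and at 381.95, 122.9 and 170.9 CPM in the contractile, remaining and allantois-marker members. The sarcomere genes Actc1, Tnnt2 and Ttn were all at 0 CPM in epithelial members. In a single contractile member of plate 7, Epcam (453.3 CPM) and Cldn6 (495.8 CPM) were present as well.

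The 3 members with allantois markers had Isl1 at 248.01 CPM and Tbx1 at 0 CPM. Their Tbx4 level was 304.99 CPM, Pitx1 397.15 CPM and Hoxa10 107.8 CPM, each in 3 of 3 cells. Tbx4 and Pitx1 are among the genes that picked these members, and Hoxa10 is not. In 27 E8.5 cells that are not members and carry at least 2 of the allantois genes, Tbx4 was at 197.7 CPM and Pitx1 at 237.55 CPM, and Isl1 reached 20 CPM in 15 of them. Plac1, an X-linked gene of the placenta, was at 793.75 CPM in these members and 760 CPM in those other cells, against 51.7, 11.4 and 37.9 CPM in contractile, remaining and epithelial members. Of the 36 members, 0 carried 2 of the paraxial genes Tcf15, Meox1, Meox2, Uncx and Pax3 (upper limit 9.74%), while 9 other E8.5 cells did (1.37%).

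**Figure D3:**
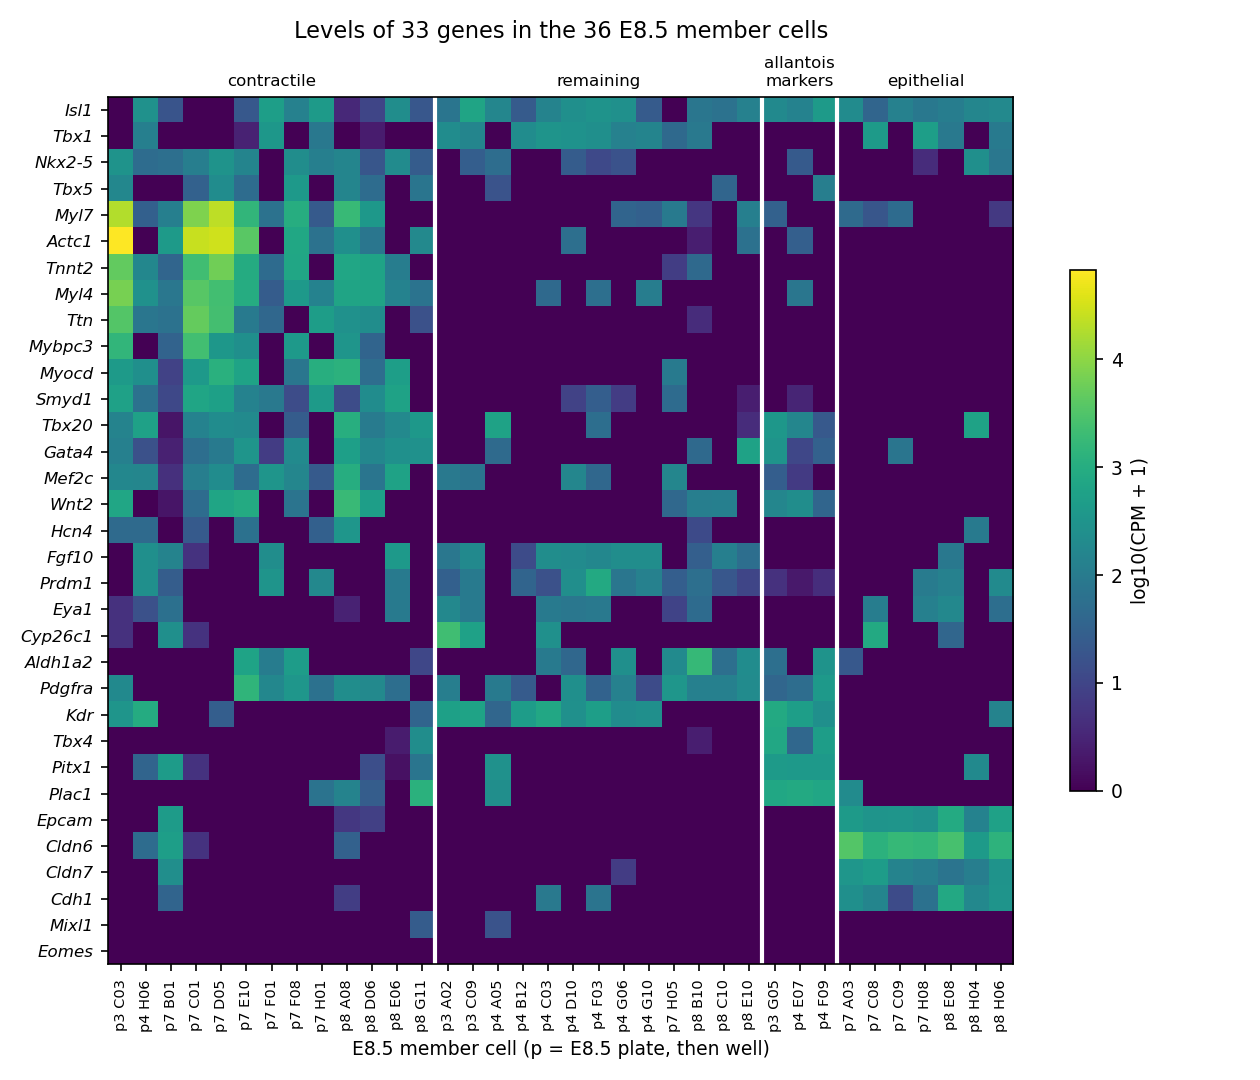
Levels of 33 genes (rows) in each of the 36 E8.5 members, as log10(CPM + 1), with cells grouped by type and each column named by plate and well. Actc1 and Myocd reach 20 CPM in 10 of 13 contractile cells each, and Cldn6 and Epcam in 7 of 7 epithelial cells. Actc1, Cldn6 and Epcam are among the genes that made the division. Of the 13 remaining cells, Isl1 reaches it in 12, Tbx1 in 10 and Fgf10 in 10.

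Members were then set against all other cells of the same plate, as the mean over plates of log2((members + 1 CPM)/(other cells + 1 CPM)). Plates with at least 5 members entered, which were plates 4, 7 and 8 at E8.5 and 6 plates at E7.5. A gene is called higher or lower when this mean was at least 1 or at most -1 and the sign was the same on every plate. Since the members were chosen from these reads, the counts describe them, and the added 1 CPM makes the ratios of low genes too small. Only genes at 10 CPM or more in members or other cells could be called, while medians of lists cover all their genes. At E8.5, 2.54% of 9952 genes were higher in members and 5.98% lower, and the median of all genes was -0.08 (log2). The minimum was met by 23 of 27 sarcomere genes, 11 of 16 heart transcription factor genes, 17 of 22 second heart field and arch genes, 7 of 16 calcium handling genes and 12 of 23 Hox genes.

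Sarcomere genes were the list with the largest number of higher genes at E8.5, with 10 of 27 higher, 0 lower and a median of 1.90. Actc1 was at 1997 CPM in E8.5 members (exact Poisson interval 1979 to 2015) and 15.2 CPM in other cells. Its members' levels were 7304, 7.94, 2960 and 81.7 CPM on plates 3, 4, 7 and 8, against 1.21, 3.32, 12.3 and 64.2 CPM in other cells. Members of plates 3 and 7 thus stood far above the other cells and those of plates 4 and 8 close to them. Of the contractile members, plates 3 and 4 held only 1 each, plate 7 held 7 and plate 8 held 4. Tnnt2 was at 23.1, 477.3 and 322.99 CPM in members of plates 4, 7 and 8 and at 0.506, 1.25 and 12.6 CPM in other cells. For this gene the members were above the other cells on all 3 plates, with a mean log2 ratio of 5.44. Myl4, an atrial light chain gene, was at 755.7, 70, 489.15 and 312.04 CPM against 2.19, 2.92, 0.744 and 21.1 CPM (log2 5.38). The spread within the members was wide, since Actc1 reached 20 CPM in 13 of 36 cells, Tnnt2 in 12, Myl4 in 17 and Ttn in 10, and the highest single cells were at 66999, 6043, 6932 and 4826 CPM.

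Further sarcomere genes past the fold were Tnni1, the slow troponin I of the early heart (383.1 and 30.6 CPM in members and other cells, log2 3.33), the slow myosin heavy chain Myh7 (88.6 and 2.40 CPM, 3.34), the myosin chaperone Unc45b (66.4 and 3.35 CPM, 4.77) and Des, which encodes the muscle intermediate filament desmin (1.90). Myh6, the atrial myosin heavy chain, averaged 3.17 yet was below the other cells on plate 4 and is not called. Without the contractile members the median of the sarcomere list was -0.65, and without all cells with at least 8 sarcomere genes, members and others, it was -0.29. These cells were picked by the same genes, so the direction of that fall is fixed by the choice. Without plate 7, which held 7 of the 13 contractile members, the median was 0.80.

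Of 16 heart transcription factor genes, 4 were higher and 1 lower, with a median of 0.92. Myocd was at 45.6, 34.2, 237.8 and 388.4 CPM in members of plates 3, 4, 7 and 8 and at 0.0525, 2.73, 1.27 and 2.56 CPM in other cells (log2 5.58). It was above the other cells on every plate and most of all on plates 7 and 8. Smyd1, a muscle histone methyltransferase gene (3.55), Tbx20, a T-box gene needed for chamber growth (1.91), and Gata6 (1.25) were also higher. Hand1, a regulator of the left ventricle that extraembryonic mesoderm uses too, was lower within plates at -1.05, although the pooled levels were 66.8 CPM in members and 53.9 CPM in other cells. Gata4, a partner of Nkx2-5, was at 128.1 and 16.2 CPM and was not called, since plate 4 was at -0.89.

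Calcium handling and ion channel genes followed with 4 of 16 higher and 0 lower (median 0.82). These were the sodium-calcium exchanger Slc8a1 (63.1 and 2.05 CPM), the pacemaker channel Hcn4, Popdc2 and the potassium channel Kcnh2. Hcn4 was at 79.1 CPM in members of plate 8 and at 4.97 to 16 CPM on the other 3 plates, against 0.0843 to 2.90 CPM in other cells. Secreted heart factors had 2 of 10 higher (median 0.88). Wnt2 ranged over the 4 plates from 58.8 CPM on plate 4 to 528.2 CPM on plate 8 in members and from 4.74 to 30.2 CPM in other cells, and Sfrp5, a Wnt inhibitor of the inflow tract, at 110.5 and 2.99 CPM pooled.

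Second heart field and pharyngeal arch genes had 7 of 22 higher and 0 lower (median 0.88). Fgf10 was at 127.5, 112.7, 25.5 and 100.4 CPM in members of plates 3, 4, 7 and 8 and at 4.04, 1.38, 3.76 and 18.2 CPM in other cells (log2 3.49). Members were above other cells on all 4 plates, and lowest on plate 7, where contractile cells were most numerous. Osr1, a regulator of the posterior second heart field, was at 39.2 and 2.09 CPM pooled (2.83), yet at 0 CPM in the 4 members of plate 3. The arch gene Eya1, which encodes a transcriptional coactivator (38.4 and 6.26 CPM, 1.51), Prdm1 (2.49), the nuclear receptor gene Nr2f2 (1.47) and Tcf21 (1.11) were also higher. Fgf10 reached 20 CPM in 15 of 36 members.

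Of 12 retinoic acid genes 2 were higher, the synthesising enzyme Aldh1a2 and the degrading enzyme Cyp26c1, and 0 were lower (median 0.21). Aldh1a2 was at 6.21, 77.9, 181.1 and 174.7 CPM in members of plates 3, 4, 7 and 8 and at 9.42, 14.1, 99.8 and 13.8 CPM in other cells (2.27). Cyp26c1 was at 813.7, 32, 205.4 and 1.55 CPM in members and at 16, 2.84, 6.60 and 0 CPM in other cells (3.07). Plate 3 was the lowest in Aldh1a2 and the highest in Cyp26c1, and Cyp26c1 rested on few cells, 6 of 36 at 20 CPM with the highest at 2248 CPM.

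The medians of the signalling lists lay between -0.48 (FGF) and 0.21 (retinoic acid), against -0.08 over all genes. Among BMP genes 3 of 15 were higher (Grem1, the target Id2 at 612.85 and 141.5 CPM, and the inhibitor Smad7) and 1 lower, the ligand Bmp2 (5.58 and 22.4 CPM). Among Wnt genes 3 of 14 were higher, the ligand Wnt5a (188.02 and 36.5 CPM) and the receptors Fzd2 and Fzd7, and 0 lower. FGF genes had 1 of 13 higher, the inhibitor Spry1, and 1 lower, Fgf3 (1.71 and 59 CPM). Of 12 Notch genes, the ligand Jag1 was higher and the receptor Notch1 lower (11.8 and 78.8 CPM), and of 9 Hedgehog genes 0 passed in either direction.

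More genes of the matrix and basement membrane list were lower than higher at E8.5, 7 against 3 of 19, with a median of -0.86. Higher were the large proteoglycan gene Vcan (593.2 and 111.9 CPM), the fibrillar collagen Col2a1 (150.55 and 15.5 CPM) and the fibrillin Fbn2 (1.00). The basement membrane genes Nid1 (13.4 and 120 CPM, -3.51), Col4a1 (-1.04) and Col4a2 (-1.71) were lower, as were Sparc, Postn, Itga4 and Hapln1. On plates 4 and 8, Nid1 was at -2.58 and -5.49, Col4a1 at -1.99 and -0.20, and Col4a2 at -1.50 and -2.02. The other cells held the endothelial gene Esam at 476.66 CPM on plate 4 and 0 CPM on plate 8. The rule keeps endothelial cells out of the members, and its part in these levels was not tested. Hox genes, which give position along the trunk, had 0 of 23 higher and 5 lower, and the list median was -1.36. The 5 were Hoxb5, Hoxb7 (-1.98), Hoxc8 (-1.78), Hoxa9 (-1.91) and Hoxb9 (-2.43). All were furthest below the other cells on plate 8 when set beside plate 4. Hoxc8, Hoxa9 and Hoxb9 were at -4.68, -4.23 and -5.16 on plate 8 and at -0.01, -0.37 and -0.48 on plate 4. Hoxb5 and Hoxb7 were at -1.85 and -3.43 on plate 8 and at -0.93 and -1.47 on plate 4. Pdgfra was at 50.1, 103.2, 381.6 and 141.3 CPM in members of plates 3, 4, 7 and 8 and at 7.05, 25.9, 46.4 and 97.5 CPM in other cells (1.83). Of 13 adhesion genes, Pdgfra and Cdh1 (41.7 and 29.5 CPM, 1.45) were the 2 that were higher, and 0 were lower. For Cdh1 this came from plate 4 (16.9 and 0 CPM, 4.16), as plates 7 and 8 were at 0.02 and 0.17. Pdgfra reached 20 CPM in 21 of 36 members (58.3%, 40.8 to 74.5) and in 16.3% of other cells (13.5 to 19.3).

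Few genes of the general programmes passed the fold. Of 22 cell cycle genes 0 were higher and 1 lower, the cell cycle inhibitor Cdkn1a (-3.62), with a median of 0.06. Glycolysis (14 genes, median 0.25), the energy supply of muscle (12 genes, 0.18), imprinted genes (15 genes, 0.19) and DNA methylation enzymes (9 genes, -0.22) had 0 genes past the fold in either direction. In E8.5 members Tet1 stood at 73.7 CPM, Tet2 at 34 CPM and Tet3 at 36.7 CPM, and in other cells of E8.5 at 34, 30.2 and 43.1 CPM. The cells are a mixture of unknown genotype, and a read in a Tet gene does not by itself show a working allele.

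At E7.5, 0.834% of 9478 genes were higher in members than in other cells and 3.26% lower (median of all genes -0.08). A call needed the same sign on 6 plates here and on 3 at E8.5. The shares of the 2 stages can therefore not be compared directly. Sarcomere genes had 0 of 27 past the fold in either direction (median 0.58). Of the heart transcription factors 2 of 16 were higher and 0 lower. Gata4, which encodes a zinc finger regulator of early cardiac mesoderm, was at 134.4, 168.4 and 138.8 CPM in members of the chimera plate and embryos 1 and 2, and at 260, 47.4 and 127.5 CPM on lane plates 4 to 6. In the other cells of those plates it was at 53.1, 46.9, 46, 21.6, 7.06 and 24.5 CPM, so the members were above them on all 6 plates (log2 2.19). Zfpm1, the gene of a GATA cofactor, was higher too, at 18.9 and 9.75 CPM pooled.

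Wnt2 and Fgf10, signalling genes of the heart fields, were already higher at E7.5. Wnt2 was at 117.5, 81.3, 132.9, 200.6, 47.4 and 59.1 CPM in members of the 6 plates in the same order, and at 29.1, 28, 27.2, 25.3, 13.6 and 18 CPM in other cells (2.01). Members exceeded other cells on every plate, with little spread among the latter. Fgf10 was at 145.6, 383.8, 358.9, 73.8, 33.4 and 40.4 CPM against 62.6, 74.5, 59.9, 42.1, 11.9 and 17.5 CPM (1.58). In members it was highest in embryos 1 and 2, where all members carried streak genes. Of the 22 second heart field and arch genes it was higher with Hoxb1 alone (88.4 and 27.7 CPM, 1.08), and the list median was 0.05. The BMP ligands Bmp2 (42.8 and 22.5 CPM, 1.76) and Bmp5 (1.12), the Notch ligand Dll3 (146.9 and 35.1 CPM, 1.20), fibronectin Fn1 (1416 and 740.5 CPM, 1.07), Pdgfra (174.05 and 56.6 CPM, 1.30) and the imprinted gene Phlda2 (1482 and 495.7 CPM, 1.62) were higher too. Pdgfra reached 20 CPM in 46 of 58 members (79.3%, 66.6 to 88.8) and in 33.5% of other cells (30.4 to 36.7).

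Streak genes as a list did not separate E7.5 members from other cells of their plate. Of the 6 genes 0 were called in either direction, with a median of -0.51. Mixl1, a homeobox gene of the streak, was at 292.2, 950.5, 1099, 67.1, 195.6 and 56.8 CPM in members of the 6 plates and at 511.5, 419.1, 351.9, 89.8, 292.6 and 234.99 CPM in other cells, higher in embryos 1 and 2 and lower on the other 4 plates. Mesp1, the earliest marker of cardiac mesoderm, was at 220.6 CPM in members and 79.8 CPM in other cells pooled, with a mean of 0.76 within plates.

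Gut endoderm and epiblast were the lists with the largest numbers of lower genes in E7.5 members. Of 7 epiblast genes 5 were lower (median -2.32), among them Utf1 (1.45 and 78.2 CPM) and Pou5f1, the gene of the pluripotency factor OCT4 (112.2 and 202.3 CPM, -1.72). Of 12 gut endoderm genes 6 were lower (median -3.16), with Epcam at 59.6 and 180.6 CPM and Cldn6 at 57 and 232.8 CPM (-6.58). The adhesion gene Cdh1 was lower (-4.42), as was Crabp2 (16.5 and 34.8 CPM, -2.94), and Ncam1, which many mesoderm cells carry, was higher (57.8 and 20.6 CPM). Dnmt3b, the de novo methyltransferase gene of the epiblast, was at 283.3, 243.8, 228.6, 147.3, 116.4 and 507.7 CPM in members of the 6 plates and at 1514, 1090, 1682, 372.6, 928.9 and 1175 CPM in other cells (-2.16). Every plate showed it below the other cells.

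E7.5 members with at least 3 streak genes were also set beside those with fewer, a division again drawn after the values were seen. Mixl1 (618.25 and 15.2 CPM) and Eomes, a T-box gene upstream of Mesp1 (258.99 and 4.89 CPM), are among the 6 genes that made the division. The coreceptor gene Tdgf1, which is not among them, was at 866.65 CPM in the 33 with streak genes and 32.7 CPM in the other 25. Division and plate move together, since embryos 1 and 2 held 5 and 6 of the 33 and 0 of the 25, while lane plates 4, 5 and 6 held 2, 1 and 3 of the 33 and 5, 5 and 9 of the 25. The 25 had more Id2 (297.2 and 31.6 CPM), H19 (175.8 and 24.2 CPM), Meis1 (122.25 and 24.4 CPM) and Aldh1a2 (78 and 3.04 CPM). Over all members of a plate, Meis1 was at 14.4, 20.2 and 15.9 CPM on the chimera plate and embryos 1 and 2, and at 158.4, 54.3 and 124.2 CPM on lane plates 4 to 6. Fgf10 was higher with streak genes (254.6 and 39.3 CPM), and Tbx1 was at 20 CPM in 2 of 33 and 7 of 25 cells.

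Across both stages, 23 genes (0.237% of 9700) were higher and 87 (0.897%) lower in members on all 9 plates. Beside the rule markers Isl1, Tbx5 and Myl7, the listed genes among the 23 were Wnt2, Fgf10, Fbn2 and Pdgfra. Outside the lists, genes among the highest were Hand2os1, the upstream antisense neighbour of Hand2 (52.8 and 9.02 CPM, 2.25), Cap2, an actin regulator of heart muscle (50.6 and 11.6 CPM, 2.01), Capn6 (168.45 and 55.2 CPM, 1.95), Asb4 (160 and 40.3 CPM, 1.88), the matrix gene Mfap4 (1.71) and Bves, a cardiac membrane protein gene of the same family as Popdc2 (32.3 and 11.1 CPM, 1.59). Since the strand setting of the counting is not stated, Hand2os1 reads cannot be told apart from those of overlapping transcripts. Among the lowest outside the lists were the claudin gene Cldn4 (-3.48), Pcdh1 (1.82 and 22.9 CPM, -3.37), Crmp1 (-3.33), L1td1 (3.46 and 56.6 CPM, -2.79) and the membrane protease gene St14 (-2.69).

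**Figure D4:**
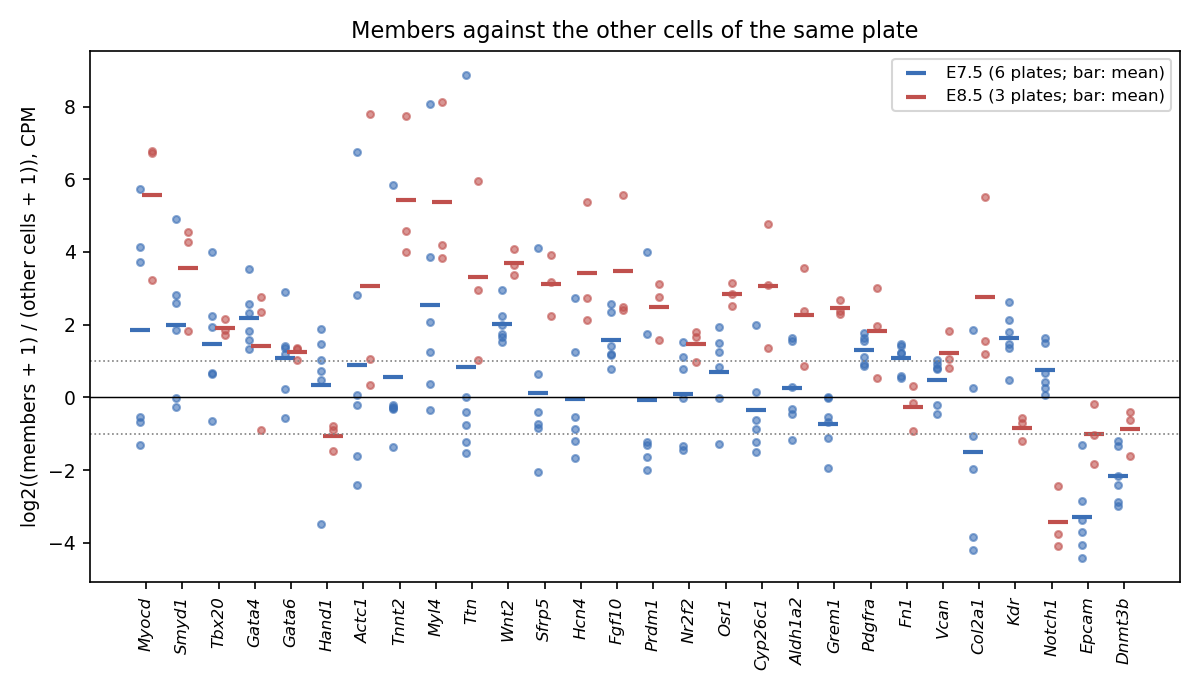
Log2((members + 1 CPM)/(other cells + 1 CPM)) within plates for genes of the function lists, each point being a plate (6 of E7.5 and 3 of E8.5) and each bar the mean of a stage. Wnt2, Fgf10 and Pdgfra lie above 0 on all 9 plates. Tnnt2 averages 5.44 at E8.5 and 0.57 at E7.5, where lane plate 4 stands apart. Kdr lies above 0 at E7.5 and below 0 at E8.5, where it is under 10 CPM in both sets on plates 7 and 8.

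Kdr went in opposite directions at the 2 stages. At E7.5 it was at 396.1, 487.2, 674.5, 232.97, 66 and 143.7 CPM in members of the 6 plates against 143.2, 139.3, 152.2, 165.7, 25.3 and 22.5 CPM in other cells, higher on all 6 plates (1.64). At E8.5 it was at 597.96, 480, 0.545 and 4.63 CPM in members of plates 3, 4, 7 and 8 against 1418, 1111, 1.31 and 8.22 CPM. The members were below other cells on each of these plates, and the gap between plates 3 and 4 and plates 7 and 8 was far larger than that between members and other cells. The rule leaves out cells with 3 or more endothelial genes, which by itself favours lower Kdr in members. The share of cells at 20 CPM was 47.2% in E8.5 members (30.4 to 64.5) and 48.6% in other cells (44.7 to 52.5).

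Among the genes outside all lists that led the E8.5 comparison were Prkg1, a kinase gene of smooth and cardiac muscle (63.3 and 3.75 CPM, 3.44), the heat shock gene Hspb7 of heart muscle (23 and 0.261 CPM, 3.25), Mylk3, the cardiac myosin light chain kinase gene (2.73), Rbm24, a splicing factor gene of muscle (2.69) and Pdlim3 (2.65). Lowest were Nepn, a proteoglycan gene of the gut endoderm (0.0468 and 145.95 CPM, -5.14), and Epas1, the hypoxia factor gene of endothelium (0 and 27.3 CPM). At E7.5 Meis1 (64.6 and 12.9 CPM, 1.99) and Gfra3 (2.03) led the higher genes beside Hand2os1, Capn6, Cap2 and Asb4, and Cer1, the anterior endoderm gene of a NODAL and BMP antagonist (0.26 and 158.8 CPM, -6.71), led the lower ones.

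Members of the 2 stages were next compared with each other by pooled CPM, where a gene counts as higher or lower at 1 or more on the log2 scale. Of 9950 genes 13.2% were higher and 10.7% lower in E8.5 members, with a median of 0.08. Stage and plate, and possibly protocol, cannot be told apart in this comparison. Sarcomere genes had 20 of 27 higher and 1 lower (median 1.75), against 4 higher and 0 lower in other cells (median 0.67), for which the background was 7.02% higher and 8.65% lower of 9861 genes. Second heart field and arch genes had 13 of 22 higher and 2 lower (1.22) in members, and 0 higher and 3 lower in other cells. Grem1 (4.43), Osr1 (3.39) and Eya1 (2.49) were among the higher ones, with Myocd at 3.69, Actc1 at 3.39 and Cyp26c1 at 4.13. Without the cells of both stages that had at least 8 sarcomere genes, a choice that by itself lowers these genes, Actc1 stood at 0.49 and Myocd at 0.73.

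Retinoic acid genes had 7 of 12 higher and 1 lower in E8.5 members (1.06), against 4 and 1 in other cells (0.62), among them Crabp2, a carrier of retinoic acid (3.52 in members). Matrix genes had 10 of 19 higher and 1 lower (1.22), against 5 and 1 in other cells (0.48), with the collagens Col3a1 (3.41) and Col1a1 (2.78). Of 15 imprinted genes 8 were higher and 1 lower (1.06), against 5 and 1 in other cells (0.29). Higher in members were the growth regulators Dlk1 (3.26), Igf2 (2.68) and H19 (2.00), while Phlda2 was lower (-2.92). All 6 streak genes were lower in E8.5 members (median -5.86), as they were in other cells (-3.98), and Mesp1 and Eomes went from 220.6 and 184.5 CPM to 0 CPM. Of 13 FGF genes 2 were higher and 5 lower, with Spry1 at 2.49 and Fgf3 at -5.91, and cell cycle genes had 1 higher and 1 lower of 22. Outside the lists, the matrix gene Smoc2 (60.3 and 0.847 CPM, 5.05) and Uchl1 (165.2 and 6.62 CPM, 4.45) led the higher genes, and the ligand Wnt3 (0 and 101.99 CPM) and the adhesion gene Pcdh19 (0.132 and 78.8 CPM, -6.14) the lower ones.

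Finally the 18 E8.5 members with Myl7 at 20 CPM or more were set against the 18 without. Of 9879 genes 14% were higher with Myl7 and 13.7% lower, with a median of 0.01. Plate and split move together, since 10 of the 18 with Myl7 came from plate 7, and 7 of those without from each of plates 4 and 8. Sarcomere genes had 21 of 27 higher and 0 lower (median 4.80), with Actc1 at 3683 and 6.81 CPM, Ttn at 402.1 and 0.479 CPM and Tnnt2 at 634.7 and 18.4 CPM. Myl7 is itself a gene of the contractile apparatus, so the split by itself favours higher sarcomere genes on its side. Heart transcription factors had 6 of 16 higher and 0 lower (1.25), led by Hand1 (3.54) and Gata5 (3.19). Secreted heart factors had 6 of 10 higher and 1 lower (2.15), with Wnt2 at 482.8 and 34.6 CPM. Pdgfra was at 357.4 and 61.7 CPM (2.51).

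Second heart field and arch genes were on the other side of this split, with 3 of 22 higher and 10 lower (median -1.12). Eya1 was at 6.99 CPM with and 75.6 CPM without Myl7, and Fgf10 at 42.2 and 114.2 CPM. Isl1 and Tbx1 are not in this list. Since a member without Myl7 needs 2 of the other markers, the rule itself raises them on that side. It also favours genes expressed with them there. Of 12 retinoic acid genes 1 was higher and 5 lower with Myl7, and the degrading enzymes Cyp26a1 (-6.12) and Cyp26c1 (22.7 and 355.8 CPM, -3.91) were among the lower. Wnt genes had 1 of 14 higher and 5 lower (-0.74), with the inhibitor Frzb (-2.91) and the feedback target genes Axin2 (-2.67) and Sp5 (-2.62) lower. Matrix genes had 1 of 19 higher and 9 lower (-1.10), among them the integrin subunit Itga4, at 0 CPM with and 27.4 CPM without Myl7. Cell cycle genes had 1 of 22 higher and 0 lower (0.02). Outside the lists Ankrd1, a sarcomere-associated stress gene (65 and 0 CPM), and Lpl, the lipoprotein lipase gene (154.8 and 1.44 CPM), were among the higher, and the Wnt potentiator Rspo2 (0 and 64.8 CPM) and Grap (0 and 79.1 CPM) among the lower.

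**Figure D5:**
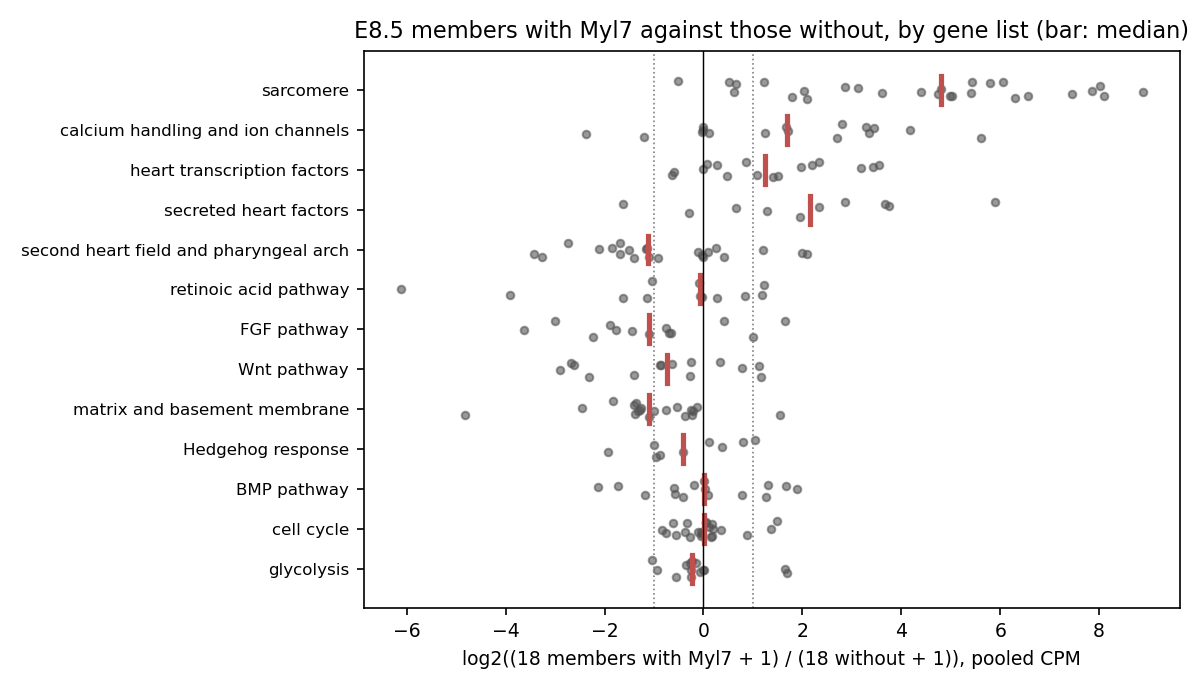
Log2 ratio of pooled CPM, the 18 E8.5 members with Myl7 over the 18 without, for each gene of the lists named on the vertical axis, with a bar at the median of each list and dotted lines at -1 and 1. The sarcomere median lies at 4.80 and that of the second heart field and arch list at -1.12. A split on Myl7 among cells that met the rule by itself favours these directions.

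Markers of other cell types were measured beside these results. Haemoglobin genes took 0.00108% of reads in E7.5 and 0.000519% in E8.5 members, against 0.809% and 4.32% in other cells. The summed level of the 10 endothelium genes on a plate ranged from 27.2 to 1070 CPM in E8.5 members and from 92.1 to 5497 CPM in other cells. Of the 10, 5 (Etv2, Sox18, Flt1, Ramp2 and Tal1) were lower. The rule leaves out cells with 3 or more endothelial genes, which by itself favours lower levels of this list in members. At E7.5 the same sum was 191.5 to 829.8 CPM in members and 106.4 to 374.8 CPM in other cells, and Kdr was the only gene of the list that was higher. That of 12 gut endoderm genes ranged from 21.1 to 1130 CPM in E8.5 members against 262.7 to 999.4 CPM, with 4 lower (Sox17, Epcam, Trh and Hhex). On plates 3 and 4 Epcam was at 0 CPM in members against only 2.01 and 2.53 CPM in other cells. On plates 7 and 8 it was at 180 and 57.4 CPM against 202.9 and 119.01 CPM. Sox17 was at 3.23 CPM in members and 120.8 CPM in other cells of plate 4, and at 2.81 and 3.78 CPM on plate 8. For Hhex these levels were 0.744 and 105.9 CPM on plate 4 and 0 and 6.23 CPM on plate 8. The 5 allantois genes summed to 17.7 to 280.7 CPM in members and 34.5 to 117.8 CPM in other cells. The part of these cell types in the results above was not tested beyond leaving out the epithelial or allantois-marker members. Without the epithelial members the median of the sarcomere list at E8.5 was 2.16. Epithelial members were picked with fewer than 8 sarcomere genes, so leaving them out by itself favours a higher median.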

How the data were processed

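RNA of 1824 single cells was measured by Smart-seq2. The authors deposited raw counts of reads per gene and cell, made with HISAT2 2.1.0 on GRCm38 and featureCounts on an Ensembl annotation. Strand and multi-mapping settings were not given in the sources used here, so paralogs and overlapping genes are uncertain. Of 55487 genes, 55141 matched a symbol, and genes without one held 0.012% of reads. Total reads per well ranged from 0 to 6162793 (median 611135).

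Members and gene lists (19 of function, 18 of cell classes) were chosen with earlier results of these data known. Cells with at least 100000 reads were kept and no doublet caller was run. Counts were summed per set and plate and divided by all reads (CPM). Log2 ratios used a pseudocount of 1 CPM, which understates the change of low genes, for genes at 10 CPM or more in either set, and the limit of 1 follows the fold limit of the study. Genes named were up to 6 of each list by level in E8.5 members plus those a count rests on, and outside the lists genes among the 12 highest and 8 lowest ratios. Intervals (scipy 1.17.1) are exact Poisson for CPM and Clopper-Pearson for shares, at 95%, and take in counting error alone, because reads copied by amplification are no independent molecules. Ratios were checked on simulated data. Alternatives changed the rule, read minimum, pseudocount, CPM minimum, scaling (edgeR 4.0.16 TMM, DESeq2 1.42.0 size factors), weighting and cells or plates included. Promoters came from RefSeq tables and gene positions from GENCODE M21. No genotype or gate was inferred for any cell, and values of 1 listed gene are not reported here.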

Additional observations from a re-analysis of the deposited data

Results flagged for a closer look

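Of 19 groups of plates examined, the members of E7.5 lane plate 4 stood apart in 1. Their summed sarcomere level was 8.56e+03 CPM, against 168.9 to 586.1 CPM on the other 5 plates, and the gap was 0.95 of the whole range. Chance flags about 1 in 20 such groups. The 3 E7.5 members with at least 8 sarcomere genes were all on this plate, and 1 of them carried 24, the most of any E7.5 member. The summed level pools reads, so cells with high levels weigh most in it.

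Of 54 lists and genes examined for opposite signs at the 2 stages, Kdr was the 1 found. Its mean log2 ratio of members to other cells was 1.64 on the E7.5 plates and -0.83 on those of E8.5, a difference of -2.48. Every E7.5 plate was above 0 and every E8.5 plate below it. This difference was not tested.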

How the results depend on the processing

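Few markers and few cells limit these values. With 3 of 5 markers, the share of E7.5 members was 0.628% instead of 6.07%, and only 1 plate, of E8.5, kept enough members, so that no value over both stages could be had. No paired analysis was possible because the comparisons come from no test, although ratios to other cells were formed within each plate. Values in this section are percentages of genes or log2 ratios.

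For genes higher at both stages (0.237%), the share was 0.0608% with no minimum, 0.369% at a minimum of 50 CPM, 4.68% pooled over plates, 0.0927% without contractile members, 0.145% without all cells with 8 or more sarcomere genes, and 0.257% to 0.395% leaving out each plate. For lower genes (0.897%) it was 0.282% at 50 CPM, 6.29% pooled, and 0.966% to 1.6% leaving out each plate. At E8.5 the higher share (2.54%) was 14.3% with 3 of 5 markers, 1.08% with no minimum and 4.59% to 5.09% leaving out each plate, and the lower share (5.98%) was 31.5%, 3.93% at a pseudocount of 5 CPM, 2.05% at 50 CPM and 8.44% to 11.1%. At E7.5 the higher share was 0.232% with no minimum (1.02% to 1.21% leaving out each plate), and the lower 1.47% at 50 CPM (3.57% to 4.52%). In these comparisons with other cells a call needs the same sign on every plate. Fewer plates make this easier to meet, which by itself favours larger shares. Pooling over plates drops the condition, and with 3 of 5 markers too few plates were left to apply it. Leaving out each plate gave 13% to 14.8% higher and 10.6% to 12.5% lower between stages, 15.1% to 18.5% and 14% to 19.2% for the Myl7 split, and shares of members of 5.27% to 6.6% at E7.5 and 3.97% to 5.99% at E8.5.

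Signs turned for these genes. With 3 of 5 markers they were Cyp26c1 (-4.72) and Slc38a3 (-2.67) at E8.5. Without the E8.5 contractile members, the E8.5 ratios to other cells were Actc1 -1.44, Tnnt2 -0.16, Myl4 -0.65, Ttn -2.66, Myocd -0.11, Tbx20 -1.20, Hspb7 -0.31, Mylk3 -0.10, Rbm24 -0.71 and Pdlim3 -0.92, and those between stages were Actc1 -4.80, Tnnt2 -3.67, Myl4 -3.43, Ttn -5.97, Myocd -0.95, Tbx20 -0.65, Mef2c -0.42, Wnt2 -1.61 and Sfrp5 -2.32. The latter still hold the 3 contractile E7.5 members. Without all cells with 8 or more sarcomere genes, the E8.5 ratios were Actc1 -1.27, Ttn -1.38, Myocd -0.10, Tbx20 -1.20, Hspb7 -0.09, Mylk3 -0.05, Rbm24 -0.69 and Pdlim3 -0.85, and those between stages Tbx20 -0.54 and Wnt2 -1.36. Both settings pick cells by sarcomere genes, which by itself lowers them. Between stages without the streak-gene members they were Myl4 -0.08, Ttn -0.17, Fgf10 0.92 and Sfrp5 -0.26, and without epithelial members Cldn6 -0.75. In the Myl7 split they were Osr1 -1.19 to 2.28 and Lhx1 -3.80 to 0.35 leaving out each plate and Elf3 0.12 without epithelial members. Settings that leave out a type of member were chosen after seeing the data, and the cause of the other changes was not tested. The sarcomere median at E8.5 (1.90) was 5.38 with 3 of 5 markers, -0.65 without contractile members, and between 1.86 and 1.97 under the other scalings.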

Other observations

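The 7 cells with at least 2 markers that were left out for endothelial genes came from E7.5 lane plate 2 (3 cells) and E8.5 plates 3 and 4 (2 each). They held Kdr at 1163 CPM and Plvap, a gene of fenestrated endothelium and endocardium, at 1507 CPM, both in 7 of 7 cells. Nfatc1 (152.1 CPM) and Npr3 (155.3 CPM), markers of the endocardium, reached 20 CPM in 5 of 7 cells each, and Cldn5 (253.3 CPM) and Etv2 (88.8 CPM) in 5 each. Of the rule markers, Tbx1 was at 107.1 CPM (4 cells), Isl1 at 63.8 CPM (5 cells) and Nkx2-5 at 23.3 CPM (3 cells), while Actc1 and Wnt2 were at 0 CPM.

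Of the cells outside the rule, 9 carried at least 8 sarcomere genes, 3 on E7.5 lane plate 4, 1 on lane plate 6, 2 on E8.5 plate 7 and 3 on plate 8. Isl1 and Tbx1 were at 0 CPM in them. They held Krt8 at 2182 CPM and Acta2, smooth muscle actin, at 1448 CPM in 9 of 9 cells, Hand1 at 375.2 CPM (7 cells), Wnt2 at 129.1 CPM (7 cells), Postn at 1683 CPM (5 cells), Actc1 at 204.3 CPM (6 cells) and Myl7 at 361.6 CPM (3 cells).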
